A study of Mus musculus with 30 samples.

Results

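The livers compared here came from male C57BL/6J mice fed the AIN-93G standard diet with SRT2104 mixed in or the standard diet alone (SD). They are the 5 arrays labelled liver and SRT2104 and the 5 labelled liver and SD, 10 of the 30 arrays of the series. Probes were taken in when their detection p-value, which measures how often a negative control bead is as bright, was under 0.02 on at least 5 of the 15 liver arrays, which kept 11065 of 25697 probes and 7725 named genes. SRT2104 is a small-molecule activator of the NAD-dependent deacetylase SIRT1, and it was given at 1.33 g per kg of chow, or roughly 100 mg per kg of body weight a day. The other 5 liver arrays came from mice under 40% calorie restriction (CR), a diet that the labels date to an age of 41 weeks after 14 weeks of feeding. All 3 diets were begun at 28 weeks of age. The labels of the SRT2104 and SD livers speak of tissue taken at the end of life, whereas the design notes have 5 mice of each diet selected after 41 weeks. For its microarrays the study's methods give an age of 41 weeks and 14 weeks of diet, as the CR labels do. The sources used here do not give the hour of sampling, and nothing in the labels tells whether equal replicate numbers mark related animals. The p-values measure the spread between these samples. Those of the main comparison rest on 1 spread per probe over all 15 liver arrays, CR livers included.

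In the liver, a cell-autonomous clock drives daily rhythms in a large share of metabolic genes. CLOCK and BMAL1 (the product of Arntl) bind E-boxes and activate the Per and Cry repressors, the REV-ERB receptors Nr1d1 and Nr1d2, and Dbp, and REV-ERB in turn represses Arntl through ROR elements. SIRT1 is known to bind CLOCK and to deacetylate clock and metabolic regulators, and its activity follows the level of NAD, which links this loop to lipid, amino acid and mitochondrial metabolism.

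The differences that held in every way of scaling the arrays included several clock genes and single genes of amino acid, mitochondrial and xenobiotic metabolism. In SRT2104 livers the clock activators Arntl and Clock were lower, the clock-driven genes Dbp, Rgs16, Per3 and Nr1d1 were higher, and Clpx, Gldc, Aass, Insig2, Plin5 and Rsad2 were lower, while Cyp1a2, Asns, Slc38a3, Ccn2, Txnip and Nmrk1 were higher. With limma and Benjamini-Hochberg adjustment over all kept probes, 350 of 11065 probes (3.16%) had an adjusted p under 0.05, of which 167 were higher (1.51%) and 183 lower (1.65%) in SRT2104 livers. The count was 172 without SRT2104 replicate 3, 225 without SRT2104 replicate 2 and 90 when the CR arrays were kept out of the fit. Passing under every scaling did not mean passing under the other alternatives. Of the 65 called genes examined singly, 31 kept their direction without passing when the CR arrays were kept out. Of the genes listed above, Nr1d1 and Asns were kept in 13 and 12 of 15 runs that each left out 1 array. Most of these differences were small. Their median absolute size was 0.40 log2 units, 12 of the 350 exceeded 1 log2 unit (7 higher and 5 lower), and 271 had no overlap between the 5 SRT2104 and the 5 SD values. Over all 11065 probes 539 had none (4.87%), 290 of them higher and 249 lower in SRT2104. Taking the brightest kept probe of each gene, 257 of 7725 genes passed (3.33%), 119 higher (1.54%) and 138 lower (1.79%). More than 1 probe passed for 21 genes, and in each of these 21 the probes moved the same way.

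The arrays of the groups differed before scaling. The SD of the natural log signal over the kept probes was 1.122 to 1.191 on SRT2104 arrays and 1.208 to 1.246 on SD arrays (exact two-sided permutation p = 0.00794, the smallest that 5 against 5 allows), and the median signal of these probes was 350.7 to 479.7 and 469.8 to 603.2 units (p = 0.0159, same exact test). The main values were brought to 1 mean and SD per array, and each call was also made under 4 other scalings, namely neqc, quantile normalization, median scaling and the deposited scores as they are. Of the 350 probes, 94 passed under the main scaling and all 4 others, 41 higher and 53 lower, covering 76 named genes. The direction was kept under all of them by 343. Calls higher in SRT2104 made up 47.7% of the total in the main values and 36.6% of the 535 calls made on the deposited scores as they are. The split of the calls moved with the scaling in dim and bright classes alike. Among the 3062 probes below 8 log2 units 50 were higher and 7 lower in the main values, against 27 and 18 with neqc, 16 and 12 with quantile normalization, 275 and 4 with median scaling and 11 and 48 with the deposited scores. Between 8 and 10 the main calls were 30 higher and 91 lower, against 38 and 45 with quantile normalization, and between 10 and 12 they were 19 and 78, against 25 and 38. Between 12 and 14 they were 33 and 7, against 6 and 61 with median scaling. Among the 190 probes with a mean of 14 log2 units or more, 35 were called higher and 0 lower under the main scaling, and 0 of these 35 passed under all 4 others. The median change in this class was 0.22 log2 units in the main values, 0.01 with neqc, 0.01 with quantile normalization, -0.05 with median scaling and 0.36 with the deposited scores. Over all kept probes the median change was 0.0019 in the main values, and no scaling moved it by 0.1 or more. At the rule's edge, 261 probes were detected on 5 liver arrays (median signal 173.7 units) and 244 were just outside it on 4 arrays (170.8 units).

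**Figure D1:**
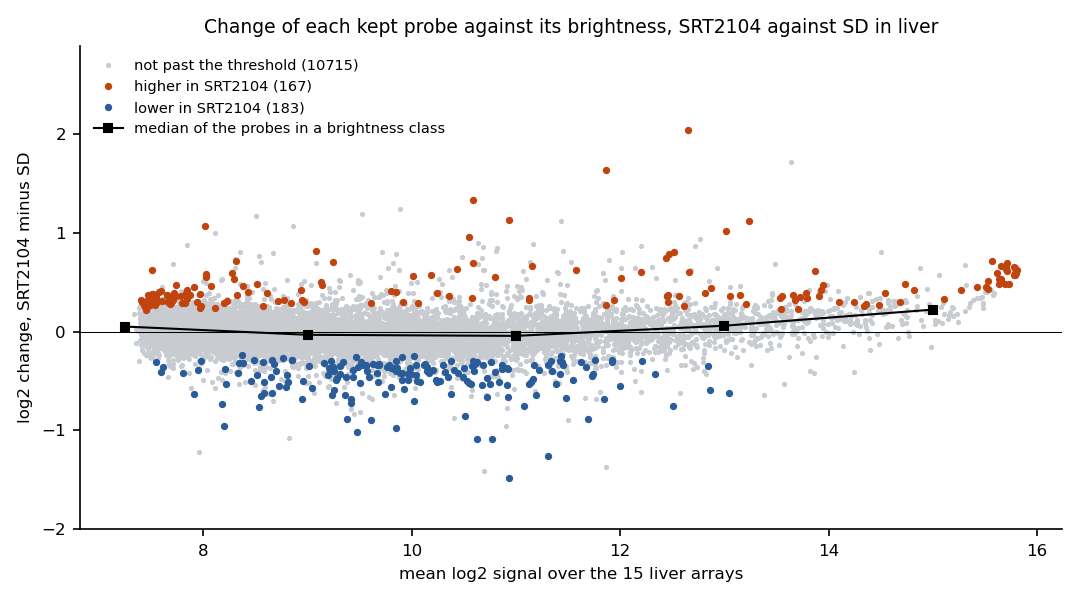
Log2 change of each of the 11065 kept probes (SRT2104 minus SD, vertical axis) against its mean log2 signal over the 15 liver arrays (horizontal axis). Red points are the 167 probes called higher in SRT2104, blue points the 183 called lower and grey points the rest, and black squares give the median change within 5 brightness classes. Above 14 log2 units all 35 called probes are red and the median lies at 0.22, whereas the large changes between 8 and 14 stand apart from the median line in both directions.

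The labelled tissue was checked against its markers. All 5 arrays of each diet detected the hepatocyte transcript Apoa1, at 15.98 ± 0.39 log2 units in SRT2104 and 15.31 ± 0.21 in SD livers (SD, n = 5 each), while the kept probe of Alb, at 7.59 ± 0.07 and 7.34 ± 0.09, was near the background. Of 15 lymphocyte and neutrophil markers on the array only S100a8 and S100a9 passed the detection filter, and of 7 cholangiocyte markers 2 did. By limma, none of the 11 measured Kupffer cell and macrophage markers passed (median change -0.11, against 0.0019 over all probes), and 0 of them had an unadjusted p under 0.05. All 11 had a negative change in the main values, from -0.25 to -0.00098. None of 13 endothelial, 9 stellate cell and fibroblast, 2 cholangiocyte, 3 erythroid or 3 pancreas, adipose and muscle markers passed either, of which 4, 2, 0, 0 and 1 had an unadjusted p under 0.05, although 1 endothelial marker rose with neqc, quantile normalization and median scaling and 2 fell with the deposited scores, where 1 stellate marker rose. The neutrophil genes S100a8 and S100a9 had changes of -0.81 and -0.71 (adjusted p = 0.354 and 0.372). The summed level of the 13 hepatocyte markers was 18.86 to 19.52 in SRT2104 and 18.34 to 18.84 in SD livers (exact permutation p = 0.00794, adjusted over 8 marker lists 0.0635), and that of the stellate list was 14.17 to 14.55 and 13.94 to 14.25 (exact permutation p = 0.0397, adjusted 0.159). Both sums were taken in the main values. The median change of the hepatocyte list was 0.52 there and 0.06 with neqc and with quantile normalization. In whole tissue, fewer cells of a type and less RNA per cell cannot be told apart.

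Among the probes past the threshold, the clock-driven genes Rgs16 and Dbp had the largest rises. The starts of 5 genes that the results turn on are shown with the motifs found in them, since several clock members moved and the E-box, D-box and ROR elements are the sites through which the loop is known to act. The sequences are RefSeq windows of GRCm38.p6, running 250 bases before to 50 after the start, 5′ to 3′ on the strand of the gene, and capitals mark matches on either strand. They are Rgs16 (chr1:153740103-153740402, plus strand), Dbp (chr7:45704997-45705296, plus), Per3 (chr4:151044616-151044915, minus), Arntl (chr7:113207261-113207560, plus, the downstream one of its 2 listed starts) and Bhmt (chr13:93637709-93638008, minus), the last because it is the largest fall.
Rgs16: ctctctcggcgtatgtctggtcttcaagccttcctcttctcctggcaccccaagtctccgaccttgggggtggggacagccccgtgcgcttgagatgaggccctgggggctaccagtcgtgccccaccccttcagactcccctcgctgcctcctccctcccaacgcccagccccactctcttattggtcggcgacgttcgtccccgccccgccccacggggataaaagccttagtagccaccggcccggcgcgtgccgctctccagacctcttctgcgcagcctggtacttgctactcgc
Dbp: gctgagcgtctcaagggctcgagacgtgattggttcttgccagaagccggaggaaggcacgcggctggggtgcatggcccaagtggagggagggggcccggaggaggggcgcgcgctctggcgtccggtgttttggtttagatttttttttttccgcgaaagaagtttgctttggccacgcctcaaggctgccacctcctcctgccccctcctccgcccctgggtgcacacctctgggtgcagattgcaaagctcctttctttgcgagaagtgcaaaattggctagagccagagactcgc
Per3: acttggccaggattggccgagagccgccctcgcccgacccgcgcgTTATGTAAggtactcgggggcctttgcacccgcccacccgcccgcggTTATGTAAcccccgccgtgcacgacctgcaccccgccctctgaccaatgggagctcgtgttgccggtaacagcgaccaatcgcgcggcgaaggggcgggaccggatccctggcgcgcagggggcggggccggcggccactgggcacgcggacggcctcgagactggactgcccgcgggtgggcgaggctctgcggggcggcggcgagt
Arntl: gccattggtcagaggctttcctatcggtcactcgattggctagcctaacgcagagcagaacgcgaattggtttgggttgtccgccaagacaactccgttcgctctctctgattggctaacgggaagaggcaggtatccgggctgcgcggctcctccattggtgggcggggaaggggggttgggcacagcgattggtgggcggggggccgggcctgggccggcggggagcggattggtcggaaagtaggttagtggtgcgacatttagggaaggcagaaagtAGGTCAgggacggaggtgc
Bhmt: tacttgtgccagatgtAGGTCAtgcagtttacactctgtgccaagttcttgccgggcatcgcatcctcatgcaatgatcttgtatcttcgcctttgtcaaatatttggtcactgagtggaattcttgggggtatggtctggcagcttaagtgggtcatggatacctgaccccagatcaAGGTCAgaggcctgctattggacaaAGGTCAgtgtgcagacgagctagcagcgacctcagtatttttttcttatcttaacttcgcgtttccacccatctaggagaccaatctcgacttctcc
The letters searched were CACGTG (E-box), TTATGTAA and TTACGTAA (D-box), AGGTCA (ROR element core), TCACNCCAC (sterol response element), TGATGNAAT (CARE), TNGCGTG (dioxin response core) and GGAATG (TEAD element), on both strands, and no matches overlapped in these 5 windows. Per3 held the D-box letters at positions -205 and -158, Arntl the ROR core at 32, and Bhmt the ROR core at -234, -72 and -47, counted with the start at 1. Neither Rgs16 nor Dbp held any of the motifs in its window. Across all 32851 windows, 7.15% held the E-box, 1.06% the D-box, 16.3% the ROR core, 1.24% the sterol response element, 0.965% the CARE, 5.07% the dioxin response core and 14.7% the TEAD element. Of the 29 measured clock genes below, 23 had a window that could be shown, and 4 of these held the E-box (Ciart, Per1, Tef and Tspan4), 1 the D-box (Per3) and 8 the ROR core. A gene counted here if any of its listed starts held the letters, while the shares above are per window. The counts and shares are therefore not on the same measure. A match describes these letters only.

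Among the core activators, 2 of 3 measured genes fell and the third, Rora, was not past the threshold (median change of the list -0.51 log2 units). The share called was 66.67%, against 3.33% of all genes. Arntl, which encodes BMAL1, had log2 signals of 7.68, 7.54, 7.46, 7.42 and 7.46 in SRT2104 livers, against 8.76, 8.84, 8.21, 8.37 and 8.16 in SD livers. Every SRT2104 liver lay below every SD liver with no overlap, and Arntl was detected on only 2 of the 5 SRT2104 arrays while it was detected on all 5 SD arrays. Its change was -0.96 (standard error 0.12, adjusted p = 0.00104). Clock, the partner of BMAL1, had 9.80, 10.07, 9.86, 10.14 and 9.82 in SRT2104 livers, against 10.47, 10.57, 10.33, 10.47 and 10.42 in SD livers, a change of -0.51 (standard error 0.09, adjusted p = 0.00673). These ranges did not overlap either. Rora, an activator of Arntl, had a change of -0.34 (adjusted p = 0.0886), and -0.41 without SD replicate 1 (adjusted p = 0.0423).

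Of the 10 measured repressors and associated kinases, 2 rose and none fell (20% called, against 3.33% of all genes, median change 0.25). Per3, a member of the Period family, stood at 7.95, 7.52, 7.77, 7.53 and 7.96 log2 units in SRT2104 livers, against 7.0 in SD replicates 1 and 2 and 7.08, 7.16 and 7.36 in SD replicates 3, 4 and 5. It was above background on 4 SRT2104 arrays and on none of the SD arrays, so that only a bound can be given, at least 1.22-fold higher in SRT2104 livers (measured means 7.75 and 7.12, adjusted p = 0.00298). Nr1d1, the REV-ERB alpha receptor, had 10.10, 9.99, 9.91, 10.11 and 9.88 in SRT2104 livers, against 9.38, 9.16, 9.59, 9.46 and 9.91 in SD livers. The groups overlapped through SD replicate 5 alone, and the rise of 0.50 (adjusted p = 0.0228) was lost without SRT2104 replicate 1 or replicate 4 (adjusted p up to 0.0544), while a dimmer probe of the gene, at 0.27, did not pass (adjusted p = 0.166). Per1 and Per2, which together with the Cry proteins shut off CLOCK and BMAL1, had changes of 0.69 and 0.53 that did not pass (adjusted p = 0.25 and 0.215), and Nr1d2 had one of -0.03 (adjusted p = 0.921), with a sign that turned under 2 of the 4 other scalings.

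Of 17 measured D-box factors and clock outputs, 2 rose (Dbp and Rgs16) and 2 fell (Elovl3 and Insig2, median change 0.63). The share called was 23.5%, against 3.33% of all genes. Dbp encodes a PAR bZIP activator that binds D-boxes. Its log2 signals were 13.47, 13.27, 13.61, 12.80 and 13.44 in SRT2104 livers, against 11.04, 10.66, 11.92, 12.25 and 12.50 in SD livers. Rgs16, a brake on G protein signaling whose liver transcript is known to cycle, had 13.75, 13.72, 13.57, 13.59 and 13.44 in SRT2104 livers, against 10.40, 11.08, 11.78, 12.30 and 12.28 in SD livers. Both genes were fully separated, and for both the SRT2104 livers were the more alike, with an SD of 0.13 against 0.82 in SD livers for Rgs16 and of 0.31 against 0.79 for Dbp. The changes were 2.04 (adjusted p = 0.00298) and 1.64 (adjusted p = 0.00455), and neither was lost under any alternative other than the methods' t-test.
The same unequal spread was seen in genes that did not pass. Usp2, a deubiquitinase with a strong liver rhythm, had 9.94, 10.19, 11.02, 10.21 and 9.67 in SRT2104 livers, against 7.55, 8.65, 9.16, 10.45 and 8.99 in SD livers (change 1.25, adjusted p = 0.0694). Only SD replicate 4 reached the range of the SRT2104 livers. Tef, a relative of Dbp, had a change of 0.63 (adjusted p = 0.0533), Ciart, a repressor in the loop, one of 0.80 (adjusted p = 0.156), and Nfil3, which represses at D-boxes, one of -0.90 (adjusted p = 0.124). SD replicate 1 was the lowest SD liver for Rgs16, Usp2, Per1, Per2 and Ciart, and it stood apart from its group over all kept probes, with a median correlation of 0.973 with the other SD arrays, against 0.983 to 0.986 for the others. Without it the changes were 1.75 for Rgs16 (adjusted p = 0.00246), 1.48 for Dbp (0.0107), -0.88 for Arntl (0.00181), -0.51 for Clock (0.0144), 0.59 for Per3 (0.00705) and 0.47 for Nr1d1 (0.0443), all still past the threshold. Those of Usp2, Per1, Per2 and Ciart were then 0.90, 0.29, 0.26 and 0.45, none past it (adjusted p = 0.108, 0.413, 0.357 and 0.247), and 331 probes were called, 146 higher and 185 lower. Over all kept probes the median SD within a group was 0.129 in SRT2104, 0.158 in SD and 0.116 in CR livers. This spread was larger in SD than in SRT2104 livers for 64.5% of probes. The hour of sampling is not given for these livers, and its part in the differences of the clock genes was not tested.

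Elovl3, an elongase of very long chain fatty acids whose liver transcript is known to cycle and to be higher in males, fell by 0.89 (adjusted p = 0.0102). It had 9.44, 9.66, 9.20, 9.95 and 9.04 in SRT2104 livers, against 10.47, 10.40, 10.61, 10.34 and 9.90 in SD livers, so that only SRT2104 replicate 4 and SD replicate 5 crossed. Its call was not kept with neqc. Insig2, which retains the SREBP escort SCAP in the endoplasmic reticulum, fell on each of its 3 kept probes. On the probe with the largest change it had 10.73, 10.85, 10.53, 11.04 and 10.83 in SRT2104 livers, against 11.52, 12.20, 12.46, 11.54 and 11.68 in SD livers, a change of -1.08 (adjusted p = 0.00762). The other probes had -0.76 and, on the brightest, -0.59 (adjusted p = 0.0132 and 0.0158), and on none of the 3 did the diets overlap.

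**Figure D2:**
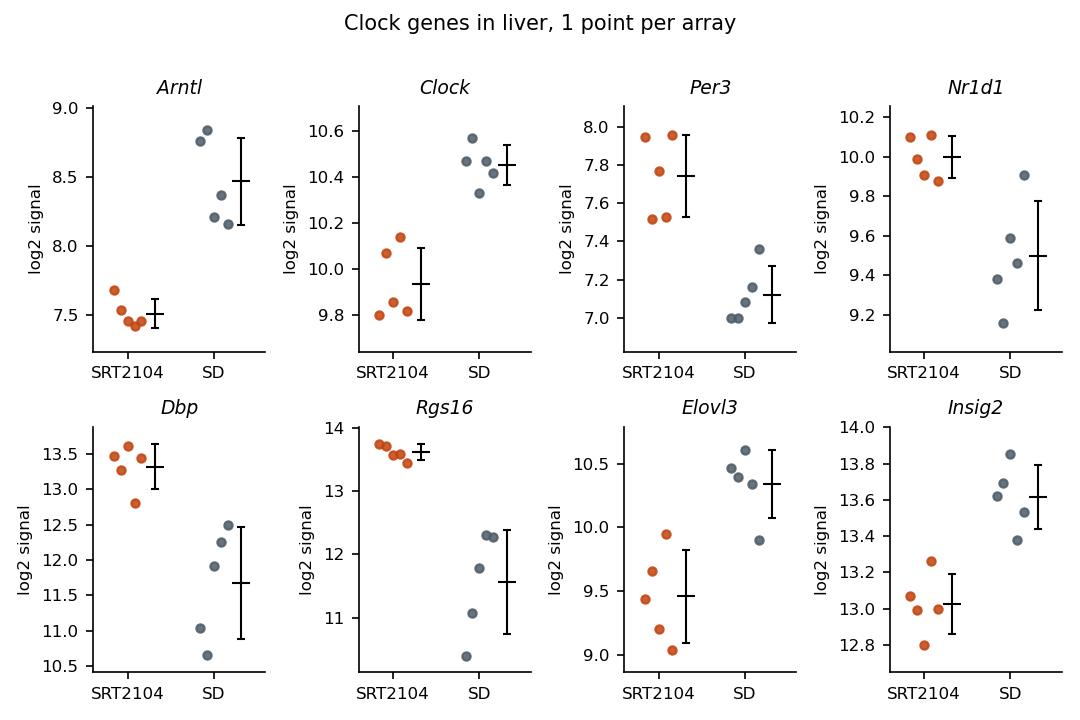
Log2 signal (vertical axes) of 8 clock genes in the 5 SRT2104 livers (left, red) and the 5 SD livers (right, grey), 1 point per array in the order of the replicate numbers, with the mean and SD (n = 5) beside them. Arntl, Clock, Elovl3 and Insig2 are lower and Per3, Nr1d1, Dbp and Rgs16 higher in SRT2104, and the SD livers spread more widely for Dbp and Rgs16.

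Several of these clock genes differed between SRT2104 and CR livers, and others did not. Changes against SD under either diet share the same SD arrays as their baseline. The labels speak of the end of life for SRT2104 livers and of 41 weeks of age for CR livers. The hour of sampling is given for neither, and the part of age and hour in these differences was not tested. Dbp was 2.72 log2 units higher in SRT2104 than in CR livers (adjusted p = 3.6e-06), Nr1d1 was 2.12 higher (adjusted p = 5e-09) and Arntl was 1.11 lower, with 7.51 ± 0.10 in SRT2104 and 8.63 ± 0.15 in CR livers (SD, n = 5 each, adjusted p = 1.1e-05). Insig2 was 1.09 higher in SRT2104 than in CR livers on its brightest probe (adjusted p = 1.2e-05) and Elovl3 was 1.14 higher (adjusted p = 0.00015), each being below SD under both diets, with changes against SD of -0.59 and -1.68 for Insig2 on SRT2104 and CR and of -0.89 and -2.02 for Elovl3. Rgs16 was 0.85 higher in SRT2104 than in CR livers (adjusted p = 0.0518) and Per3 differed by 0.10 (adjusted p = 0.484), which did not pass. Over all 350 called probes, 165 also differed between SRT2104 and CR livers and 185 did not pass in that comparison.

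A mitochondrial gene gave the fall with the smallest adjusted p among the brightest probes. Clpx, the AAA+ unfoldase of the ClpXP protease of the matrix, had 10.49, 10.68, 10.37, 10.70 and 10.94 log2 units in SRT2104 livers, against 12.04, 12.15, 11.71, 11.97 and 11.60 in SD livers. The highest SRT2104 liver, replicate 5, lay well below the lowest SD liver, also replicate 5. A further probe had a change of -1.09 (adjusted p = 5.71e-06), next to -1.26 on the brightest (adjusted p = 1.6e-05). Of 23 measured mitochondrial proteases, chaperones and heme enzymes, Clpx was the 1 that fell and none rose (median change -0.04, 4.3% called against 3.33% of all genes). Of 69 respiratory chain subunits, 2 rose (Ndufa6, 0.35, and Atp5b, 0.33) and none fell, a share of 2.9% against 3.33% of all genes. Atp5b was kept in 2 of 15 runs without 1 array. The median of that list was 0.03 in the main values and turned to -0.04 with neqc, -0.04 with quantile normalization and -0.12 with median scaling, where 0 rose and 5 fell. None of 36 Krebs cycle and mitochondrial biogenesis genes passed by limma, and 1 had an unadjusted p under 0.05 (median change -0.01, with 0.01 under neqc and under quantile normalization).

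Single genes of amino acid metabolism changed, with Gldc, Aass and Bhmt lower and Asns and Slc38a3 higher. Gldc, the decarboxylase of the glycine cleavage system, had 12.74, 12.89, 12.78, 13.04 and 12.84 in SRT2104 livers, against 13.57, 13.43, 13.45, 13.47 and 13.46 in SD livers. The SD livers lay close together, with an SD of 0.06, all above the SRT2104 livers, and the change was -0.62 (standard error 0.07, adjusted p = 0.000443), with -0.64 on a dimmer probe (adjusted p = 0.00243). Bhmt, which remethylates homocysteine with betaine, had 10.10, 9.74, 9.61, 9.98 and 10.92 in SRT2104 livers, against 12.01, 11.41, 11.39, 11.29 and 11.65 in SD livers (change -1.48, adjusted p = 0.0478). Although the groups did not overlap, this call was kept in 3 of 15 runs that each left out 1 array (adjusted p up to 0.111). These 2 were the members that passed among 24 measured genes of the methionine cycle and one-carbon metabolism, whose median change was -0.00043. That was 8.3% of the list, against 3.33% of all genes.
Aass, the first enzyme of lysine breakdown, had 9.42, 9.35, 9.24, 9.48 and 9.35 in SRT2104 livers, against 9.98, 10.14, 9.88, 10.24 and 9.72 in SD livers, a change of -0.63 without overlap (adjusted p = 0.00385). A pair of dimmer Aass probes, both at -0.17, did not pass (adjusted p = 0.8 and 0.691). Bckdhb, a subunit of the branched-chain ketoacid dehydrogenase, fell by 0.51 (adjusted p = 0.0336), a call lost without SD replicates 1, 2 or 4 or SRT2104 replicates 2, 3 or 4 (adjusted p up to 0.0894). Of 36 measured genes of the urea cycle and amino acid breakdown, Aass and Bckdhb fell and none rose (median change -0.03, 5.6% called against 3.33% of all genes).
Asns, asparagine synthetase, had 10.13, 8.21, 8.51, 8.44 and 8.68 in SRT2104 livers, against 7.34, 7.95, 7.91, 7.82 and 7.60 in SD livers. SRT2104 replicate 1 stood far above the others, and the lowest SRT2104 liver was still above the highest SD liver (change 1.07, adjusted p = 0.0313). Leaving out replicate 1 or 5 of SD or replicate 5 of SRT2104 ended the call (adjusted p up to 0.0606). It was the 1 gene whose brightest probe passed among 32 measured genes of the amino acid and ER stress responses (median change -0.03). That was 3.1% of the list, against 3.33% of all genes. Slc38a3, the hepatic glutamine transporter SNAT3, had 12.61, 12.96, 13.36, 12.87 and 12.95 in SRT2104 livers, against 12.13, 11.95, 12.40, 12.06 and 12.18 in SD livers (change 0.81, adjusted p = 0.00211). Each SRT2104 liver exceeded each SD liver. Slc30a10, a manganese exporter, fell by 0.58 (adjusted p = 0.0234), a call lost without SRT2104 replicate 1 (adjusted p = 0.0525).

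Against CR, the amino acid genes split. Gldc was low under both diets, at 12.86 ± 0.12 in SRT2104 and 12.79 ± 0.11 in CR livers (SD, n = 5 each), and these did not differ past the threshold (0.07, adjusted p = 0.5). Aass was 0.52 lower (adjusted p = 0.0011), Asns 1.26 higher (adjusted p = 0.0018) and Slc38a3 0.47 higher (adjusted p = 0.0053) in SRT2104 than in CR livers. For Clpx the probes disagreed, the brightest being 0.75 lower in SRT2104 than in CR livers (adjusted p = 0.00017) and the other one 0.12 lower (adjusted p = 0.34).

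**Figure D3:**
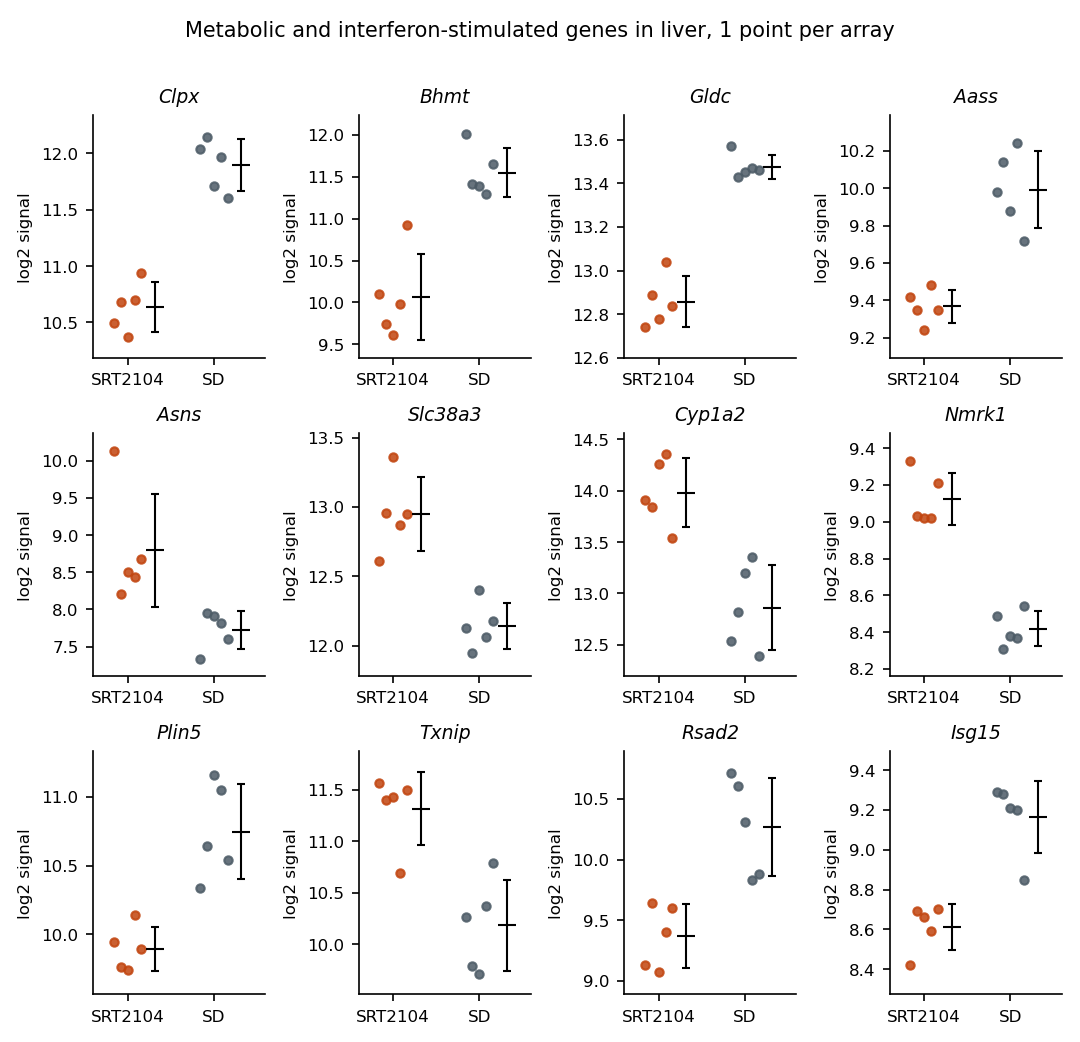
Log2 signal (vertical axes) of 12 metabolic and interferon-stimulated genes in the 5 SRT2104 livers (left, red) and the 5 SD livers (right, grey), 1 point per array in the order of the replicate numbers, with the mean and SD (n = 5) beside them. In each panel except Txnip, where SRT2104 replicate 4 and SD replicate 5 cross, the groups do not overlap, and the single high Asns value at 10.13 is SRT2104 replicate 1.

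The call of Cyp1a2 among the cytochromes P450 held under every scaling, while the median of the family did not keep its sign. Of 28 measured members of families 1 to 4, 4 rose in the main values (Cyp1a2, Cyp2a5, Cyp2d10 and Cyp2e1) and 1 fell (Cyp4f15, -0.30, adjusted p = 0.0223). The share called was 17.9%, against 3.33% of all genes. The median change of 0.11 was 0.00011 with neqc, -5.7e-05 with quantile normalization and -0.07 with median scaling. Cyp2e1 had 0.61 in the main values and 0.04 with neqc and with quantile normalization. The calls of Cyp2e1, Cyp2d10 and the brightest Cyp2a5 probe each passed under 1 of the 4 other scalings, and that of Cyp4f15 under 3. The Cyp2a5 probe of the largest change passed under all 4. Cyp1a2, which oxidises caffeine and is a target of the aryl hydrocarbon receptor, had 13.91, 13.84, 14.26, 14.36 and 13.54 in SRT2104 livers, against 12.54, 12.82, 13.20, 13.35 and 12.39 in SD livers (2.17-fold higher, adjusted p = 0.00673). All SRT2104 livers lay above all SD livers, on both kept probes of the gene, and the call passed under all 4 other scalings. Cyp2a5, a coumarin hydroxylase, rose by 0.61 on its brightest probe (adjusted p = 0.0368) and by 0.79 on the probe with the largest change (adjusted p = 0.00804). Of its other 2 probes, 1 rose by 0.75 (adjusted p = 0.0198) and the dimmest had 0.04 (adjusted p = 0.923), and -0.02 with the deposited scores. It shares sequence with the other Cyp2a genes, which these probes may not separate. None of 34 conjugating enzymes passed by limma (median change -0.02), although 9 had an unadjusted p under 0.05 and 6 rose with the deposited scores. Of 10 receptors and partners Abcc2, a canalicular export pump on this list, rose by 0.33 on its brightest probe and had 0.07 on another (adjusted p = 0.618), and Keap1, which holds NRF2 in check, had -0.34 on its brightest probe, while 3 further Keap1 probes, the largest at -0.17, did not pass. Abcc2 and Keap1 made up 20% of that list, against 3.33% of all genes. Leaving out SRT2104 replicate 3 ended the calls of Cyp2d10 and Keap1, leaving out SRT2104 replicate 4 or 5 that of Cyp4f15, and the calls of Abcc2 and of the brightest Cyp2a5 probe were kept in 9 of 15 such runs.
In SRT2104 against CR livers, Cyp1a2 was 1.09 higher (adjusted p = 0.00065) and Cyp2a5, on the probe of the largest change, was 1.06 lower (adjusted p = 6.6e-05).

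Among antioxidant genes, 3 of 24 rose (Txnip, Gpx1 and Selenop) and none fell (median change 0.06, and -0.03 with median scaling). The share called was 12.5%, against 3.33% of all genes. Selenop, a selenium carrier, rose by 0.47 on its brightest probe, which was kept in 4 of 15 runs without 1 array, and had -0.09 on another (adjusted p = 0.768). Txnip, the thioredoxin-binding arrestin that follows glucose and also curbs its uptake, had 11.57, 11.40, 11.43, 10.69 and 11.50 in SRT2104 livers, against 10.26, 9.79, 9.71, 10.37 and 10.79 in SD livers (change 1.13, adjusted p = 0.00879). SRT2104 replicate 4 was the low one and lay below SD replicate 5. Txnip passed under each other scaling, unlike Gpx1 (0.58), a glutathione peroxidase, whose change was -0.05 with neqc and with quantile normalization. Txnip stood at 11.32 ± 0.36 in SRT2104 livers and 11.29 ± 0.32 in CR livers (SD, n = 5 each), a difference of 0.03 that did not pass (adjusted p = 0.93).

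Lipid genes moved in small numbers. Plin5, the lipid droplet protein that tethers droplets to mitochondria, had 9.94, 9.76, 9.74, 10.14 and 9.89 in SRT2104 livers, against 10.34, 10.64, 11.16, 11.05 and 10.54 in SD livers (change -0.85, adjusted p = 0.00353). It was the 1 member of 17 droplet and lipolysis genes that passed (5.9%, against 3.33% of all genes). Its groups did not overlap, and its dimmer probe did not pass (-0.40, adjusted p = 0.0655). It averaged 9.89 ± 0.16 in SRT2104 livers and 10.89 ± 0.11 in CR livers (SD, n = 5 each), a difference of -0.99 (adjusted p = 6.8e-05). Acnat2, a peroxisomal acyl-CoA to amino acid transferase, fell by 0.98 (adjusted p = 0.0195), which was lost without SRT2104 replicate 3 (adjusted p = 0.0555).
Of 25 genes of fatty acid and triglyceride synthesis, Acaca, the acetyl-CoA carboxylase of lipogenesis, rose by 0.60 (adjusted p = 0.0234), Fads1, a desaturase, rose by 0.42 (adjusted p = 0.0294) and Elovl3 fell (median change 0.18, positive under all 5 scalings). That was 12% of the list, against 3.33% of all genes. Acaca was lost without SD replicates 2 or 4 or SRT2104 replicates 1 or 2, Fads1 without SD replicate 5 or SRT2104 replicates 1, 2 or 5, and neither passed under all the other scalings. None of the 15 enzymes of cholesterol synthesis passed by limma in the main values, 2 had an unadjusted p under 0.05 and 1 rose with the deposited scores. Of these, 13 had a positive change (median 0.19, and 0.13 to 0.24 under the other scalings). Abcg8, one chain of the sterol exporter of the canaliculus, had a rise of 0.62 (adjusted p = 0.0198) that passed under all 4 other scalings and was lost without SRT2104 replicate 3 (adjusted p = 0.0547). None of 37 genes of fatty acid oxidation, ketogenesis and PPARA targets passed by limma, with 8 at an unadjusted p under 0.05 and with 17 positive and 20 negative changes (median -0.02, and 0.05 with the deposited scores).

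The interferon-stimulated genes Rsad2 and Isg15 fell under every scaling. Of 41 measured members of this group 3 fell and none rose (7.3% called, against 3.33% of all genes). Their median change was -0.12, with 30 negative. Rsad2, the antiviral protein viperin, had 9.13, 9.64, 9.07, 9.40 and 9.60 in SRT2104 livers, against 10.71, 10.61, 10.31, 9.83 and 9.88 in SD livers (change -0.90, adjusted p = 0.00873). Isg15, a ubiquitin-like modifier, had 8.42, 8.69, 8.66, 8.59 and 8.70 in SRT2104 livers, against 9.29, 9.28, 9.21, 9.20 and 8.85 in SD livers (change -0.55, adjusted p = 0.00413). Neither gene overlapped between the diets. Dhx58, an RNA sensor of the RIG-I family, fell by 0.42 (adjusted p = 0.0329), with overlap, and was lost without SD replicates 1 or 3 or SRT2104 replicates 1, 3 or 4. The 11 macrophage markers all had a negative change, and none of them passed. Their summed levels were 13.18 to 13.49 in SRT2104 and 13.19 to 13.98 in SD livers, and their part in these falls was not tested. CR livers were also low in these 3 genes, and SRT2104 minus CR was 0.18 for Rsad2, 0.20 for Isg15 and 0.09 for Dhx58, none past the threshold (adjusted p = 0.443, 0.111 and 0.539).

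Of 17 immediate early genes 2 rose and none fell (11.8% called, against 3.33% of all genes). Their median change was 0.28, positive under all scalings. Ccn2, a secreted matrix-associated protein and a target of YAP and TEAD, had 11.52, 11.15, 11.24, 11.42 and 10.90 in SRT2104 livers, against 9.80, 9.38, 9.81, 9.73 and 10.81 in SD livers (2.53-fold higher, adjusted p = 0.00554). The groups did not overlap, but SD replicate 5 came close to the lowest SRT2104 liver. Dusp6, a phosphatase of ERK, rose by 0.60 on its brightest probe (adjusted p = 0.0406), and this was kept in 8 of 15 runs without 1 array. Egr1, a transcription factor induced by growth factors, had 14.21, 14.00, 14.53, 14.28 and 14.43 in SRT2104 livers, against 10.27, 12.18, 12.89, 14.35 and 13.18 in SD livers. The SRT2104 livers were tightly grouped (SD 0.20) and the SD livers were not (SD 1.51), and the change of 1.72 did not pass (adjusted p = 0.0642). SD replicate 1 was again the lowest SD liver, and without it the change of Egr1 was 1.14 (adjusted p = 0.0603) and that of Ccn2 1.31 (adjusted p = 0.0124). Of 8 YAP and TEAD targets, Ccn2 was the 1 that rose and none fell (12.5% called, against 3.33% of all genes, median change 0.06). Btg1, an antiproliferative cofactor of mRNA deadenylation, fell by 0.55 on its brightest probe (adjusted p = 0.00873), and its 2 dimmer probes, at -0.52 and -0.59, did not pass.

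Sirtuin and NAD genes included 2 that rose and 1 that fell among 19 measured (15.8% called, against 3.33% of all genes). Nmrk1, the nicotinamide riboside kinase, had 9.33, 9.03, 9.02, 9.02 and 9.21 in SRT2104 livers, against 8.49, 8.31, 8.38, 8.37 and 8.54 in SD livers (1.63-fold higher, adjusted p = 0.00159). The groups were far apart for their spread, and CR livers were higher still at 10.19 ± 0.21, so that SRT2104 minus CR was -1.07 (adjusted p = 1.4e-06). Nadk, which phosphorylates NAD, rose by 0.30 (adjusted p = 0.0421) and Sirt7, a nuclear sirtuin, fell by 0.29 (adjusted p = 0.0466), calls that were kept in 7 and 3 of 15 runs without 1 array and in 1 of the 4 other scalings each. Sirt1, the target of the compound, had 8.86, 8.72, 8.54, 8.63 and 8.41 in SRT2104 livers, against 8.78, 8.85, 8.69, 8.49 and 8.73 in SD livers (change -0.08, adjusted p = 0.669). These ranges overlapped.

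Other falls passed under every scaling without belonging to a common list. Lrfn3, an adhesion molecule known from synapses, had 9.38, 9.07, 8.58, 8.83 and 9.01 in SRT2104 livers, against 10.19, 10.10, 9.92, 9.99 and 9.78 in SD livers (change -1.02, adjusted p = 0.00148). Tubb2b, a beta tubulin, fell by 0.88, Pid1, an adaptor that binds phosphotyrosine motifs, by 0.67, Insc, an adaptor of spindle orientation, by 0.68, Pnkd by 0.68 and Mreg, a melanoregulin, by 0.63, each without overlap and with adjusted p between 0.00298 and 0.0104. The dimmer kept probes of Tubb2b and Pnkd, 1 and 2 in number, did not pass. Their changes were -0.01 for Tubb2b, detected on 1 SRT2104 and 2 SD arrays, and -0.03 for 1 Pnkd probe, and the other Pnkd probe was not above background on any SRT2104 array. Tjp3, a tight junction scaffold, fell by 0.62 on its brightest probe and by 0.76 on another (adjusted p = 0.0189 and 0.00764), the first being lost without SRT2104 replicate 3. Sel1l, an adaptor of protein degradation at the endoplasmic reticulum, had -0.72 on 1 probe (adjusted p = 0.0164) and -0.17 on its brightest (adjusted p = 0.441). Among the rises, the membrane serine protease Prss8 had a change of 0.72 (adjusted p = 0.0423), kept in 3 of 15 runs without 1 array.

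Some genes of secreted liver proteins and of ribosomal proteins rose in the main values, and 0 of these rises were kept under all 4 other scalings. Of 13 hepatocyte markers 7 rose (median change 0.52), of 21 apolipoproteins and lipoprotein genes 4 rose (Apoa1, Apoa2, Apoc1 and Apoc3, median 0.08), and of 56 cytosolic ribosomal proteins 8 rose (median 0.17, with 48 positive), while none of these lists had a member that fell. The shares called were 53.85%, 19.05% and 14.29%, against 3.33% of all genes. Apoa2, a major HDL protein, had 15.83, 15.82, 16.14, 16.08 and 16.58 in SRT2104 livers, against 15.26, 15.63, 15.43, 15.61 and 15.25 in SD livers. The order of the SRT2104 livers was the same for Ttr, the carrier of thyroid hormone and retinol, at 15.77, 15.75, 16.20, 15.95 and 16.50 against 15.16, 15.57, 15.45, 15.66 and 15.06 in SD livers. The brightest Apoc1 probe, at 0.48 in the main values, had -0.07 with neqc and with quantile normalization. Apoa1 was lost without SD replicate 5 or SRT2104 replicates 3 or 4, and Apoc1 without SD replicate 5 or SRT2104 replicate 3. With neqc 0 of the 13 hepatocyte markers, 0 of the 21 lipoprotein genes and 0 of the 56 ribosomal proteins passed in either direction. With quantile normalization 0, 0 and 3 rose, with median scaling 2, 1 and 1 rose and 2 ribosomal proteins fell, and with the deposited scores 8, 4 and 15 rose. The median of the lipoprotein list turned to -0.07 with neqc, -0.06 with quantile normalization and -0.05 with median scaling, and that of the ribosomal list to -0.01 with median scaling. Hpx, the heme scavenger, rose by 0.57 on its brightest probe in the main values and had -0.02 with neqc and with quantile normalization. The hepatocyte markers summed above include Apoa1, Apoa2 and Ttr themselves, so their sum is no separate measure of cell content. It was taken in the main values only, and the part of cell content in these rises was not tested. The highest deposited signal in liver was 64700 units.

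**Figure D4:**
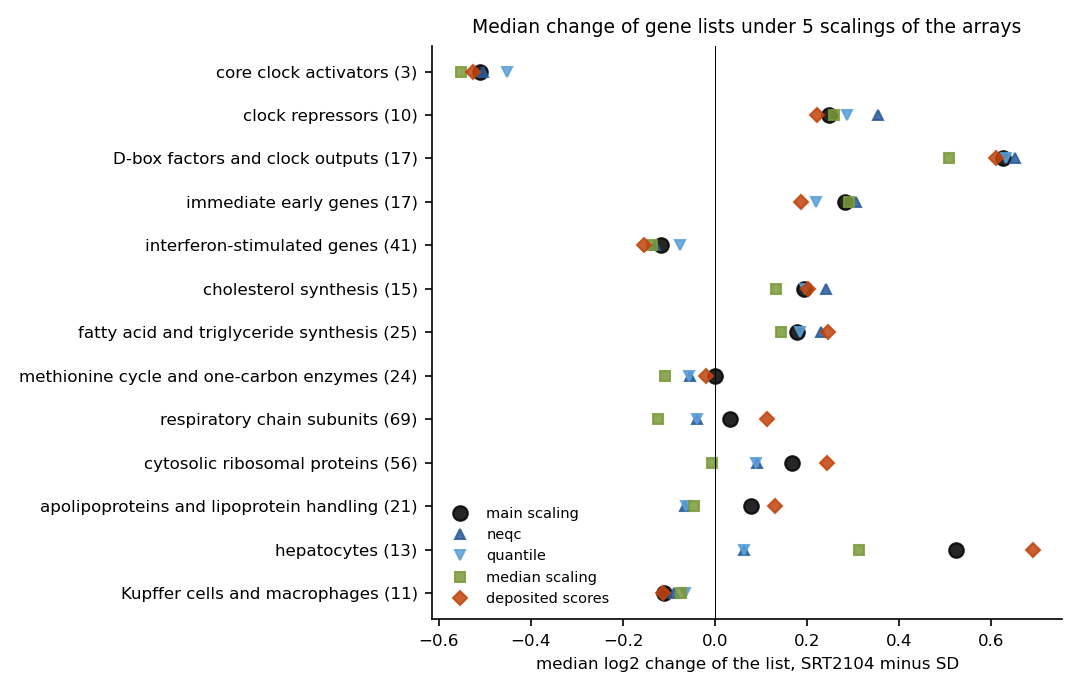
Median log2 change of 13 gene lists (SRT2104 minus SD, horizontal axis) under the main scaling (black circles) and the 4 others, with the number of measured genes of each list in brackets. The clock, immediate early, interferon and lipid synthesis lists keep their sign under each scaling, whereas the respiratory chain, ribosomal and apolipoprotein lists change sign, and the hepatocyte list runs between 0.06 and 0.69.

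The remaining lists held few members that passed. Of 48 complement, coagulation and serpin genes 3 rose in the main values (Kng1, Kng2 and Serpina1b) and Mbl1, a mannose-binding lectin, fell (median change 0.13, and -0.05 with median scaling). The share called was 8.3%, against 3.33% of all genes. The change of Kng1 was 0.59 in the main values and -0.01 with neqc and with quantile normalization, and the calls of Kng2 and Mbl1 were kept in 8 and 10 of 15 runs without 1 array. Of 43 autophagy and lysosome genes only Ctsl, the protease cathepsin L, passed (2.3%, against 3.33% of all genes), and it fell by 0.53. Of 39 nuclear receptors, liver transcription factors and corepressors only Kdm6b, a histone H3 demethylase, did (2.6%), falling by 0.46 on its brightest probe. Of 17 iron handling genes, the transferrin gene Trf rose by 0.65 and Hfe, which senses iron upstream of hepcidin, fell by 0.38 (median 0.09, and negative with neqc and quantile normalization). The share called was 11.8%, against 3.33% of all genes. No iron gene was called higher with neqc, quantile normalization or median scaling. The fall of Hfe did not pass with neqc, and its dimmer probe had -0.13 (adjusted p = 0.408). By limma none passed among 24 genes of insulin and growth factor signaling, 60 ubiquitin enzymes and proteasome subunits or 34 heat shock proteins and chaperones by their brightest probe, of which 3, 8 and 4 had an unadjusted p under 0.05. With median scaling 1, 3 and 0 of them were called.
A list of 35 measured genes had been picked for liver by the study on these same arrays, so that its counts are no independent evidence. Of its members 8 rose and 9 fell (48.57% called, against 3.33% of all genes, median change -0.29).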

How the data were processed

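Total RNA of liver and muscle was hybridised by the authors to Illumina MouseRef-8 v2 BeadChips, 1 array per mouse, 5 mice per diet and tissue. The deposited signal intensities are not normalized, and per the submitters' processing notes they were extracted with GenomeStudio 1.6.0. The deposited detection p-values compare each probe with the negative control beads of its array. The deposited scores are, per array, the natural log signal minus its mean over all probes, divided by its SD. They matched the logged intensities of 1 array each to within 0.0001, which paired the signal columns, named by diet only, with samples. The arrays' number limits the precision.

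From the scores, log2 values were made by bringing the 11065 kept probes of each of the 15 liver arrays to 1 mean and SD, times the mean SD of the natural log signal (1.188). limma 3.58.1 in R 4.3.3 was fitted to all 3 diets (12 residual degrees of freedom), with Benjamini-Hochberg adjustment over all kept probes and an adjusted p under 0.05 as the threshold. Single array values were compared by exact two-sided permutation over 252 arrangements. A fold written as "at least" sets the bright group's mean against, per array, the higher of the lowest signal above background and the dim probe's own. In simulated data on 11065 probes, 79% of changes of 0.5 and 95% of changes of 1 log2 unit were recovered for SRT2104 against SD, with 11 false calls in all and 0 where nothing was changed. The simulated noise was normal and independent, with 1 spread per probe for all 3 diets. It held neither the wider spread of the SD livers nor the differences between whole arrays, so its counts of false calls apply to such data only.

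A gene is represented by its brightest kept probe unless stated. Of all probes 23978 carry 1 gene symbol and 1719 none. The members and the 48 gene lists were chosen with earlier results of these data known. Genes were named if they were among the 20 largest rises and 20 largest falls without overlap, among the called members of a list (up to 6, or the 2 smallest adjusted p where none passed), in the study's own list, or Sirt1. Ciart, Nfil3, Nr1d2, Per1, Per2, Rora, Tef and Alb fall outside this rule and were chosen after their values were seen. Alternatives were other scalings and filters, an intensity trend, the methods' t-test, the 10 arrays alone, a replicate block and leaving out each array. Figures were drawn with matplotlib 3.10.9.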

Additional observations from a re-analysis of the deposited data

Results flagged for a closer look

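In 6 of 156 groups of 5 livers, 1 sample lay far from the rest, where chance alone would give about 1 in 20. The groups came from 1 probe for each of 78 genes. This was the brightest probe or, for genes named for a large change, the probe of that change. Asns, asparagine synthetase, was highest in SRT2104 replicate 1, at 10.13 log2 units, and Txnip, the thioredoxin-binding arrestin, was lowest in SRT2104 replicate 4, at 10.69. Among SD livers, Dusp6, the ERK phosphatase, was lowest in replicate 3, at 11.51, and Isg15, the ubiquitin-like modifier, was lowest in replicate 5, at 8.85. Ndufa6, a subunit of respiratory complex I, was highest in SD replicate 3, at 13.70, and Selenop, a selenium carrier, in SD replicate 4, at 13.85. The change of Asns passed the threshold without SRT2104 replicate 1, that of Txnip without SRT2104 replicate 4, those of Dusp6 and Ndufa6 without SD replicate 3, that of Isg15 without SD replicate 5 and that of Selenop without SD replicate 4.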

How the results depend on the processing

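The main analysis called 350 probes, 167 higher and 183 lower in SRT2104 than in SD livers (47.7% higher). Other scalings called 140 with neqc (70 higher and 70 lower, 122 of them shared with the main calls), 196 with quantile normalization (91 and 105, 168 shared), 788 with median scaling (399 and 389, 276 shared) and 535 with the deposited scores as they are (196 and 339, or 36.6% higher, 289 shared). Without the detection filter 889 were called (473 and 416), and with the SRT2104 and SD arrays alone 90 (31 and 59, or 34.4% higher), all shared. The methods' t-test, Student's test on the same values, gave 1743 probes at an unadjusted p under 0.05 and 12 after Benjamini-Hochberg adjustment (5 and 7). Leaving out each array gave 172 (without SRT2104 replicate 3) to 402 calls (without SD replicate 3), 78 to 188 higher and 94 to 214 lower, and 225 without SRT2104 replicate 2. The replicate block gave 270 calls (124 and 146, 246 shared). Same-numbered SRT2104 and SD livers correlated in their deviations at -0.25 to 0.31, so that the numbers were not shown to pair animals, and not every sample correlated best with its own number. With neqc and with quantile normalization Gpx1 turned to -0.05, Hpx to -0.02, Apoc1 to -0.07 and Kng1 to -0.01. The 78 genes were each examined by the brightest probe or, where named for a large change, by the probe of that change. For the 65 called genes, 1367 of 1686 repeats kept direction and threshold. In 311 the direction was kept without passing, and the 8 turns given above were the rest. The causes were not tested. A probe near the background on every array of a group gives only a bound, as for Per3 in SD livers, and the split of the calls moved with the scaling in dim and bright classes alike.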
